A study of Oryza sativa with 36 samples.

Results

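The rice HOX genes encode homeodomain-leucine zipper (HD-Zip) transcription factors. Members were every probe set of the Affymetrix Rice Genome Array that was tied to a single gene and whose gene carried HOX followed by a number, with or without the Os prefix, as its symbol or synonym. HOX24 was left out. This gave 32 of the 57194 probe sets on the array, for 24 genes of the 17905 with a probe set of their own: 15 probe sets of 11 HD-Zip I genes, 11 probe sets of 8 HD-Zip II genes and 6 probe sets of 5 HD-Zip III genes. For the 6 genes with several probe sets, a number in brackets orders them by mean intensity, so that HOX5 (1) was the brighter of the HOX5 pair. By their names, 7 of the 32 were of the _x_at class: HOX7 (2), HOX11, HOX16 (2), HOX17, HOX19 (1), HOX20 (1) and HOX21. Another 2, HOX8 and HOX15, were of the _s_at class. Probes of these classes may match more than 1 transcript, and whether they did was not tested.

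HD-Zip proteins are specific to plants and bind DNA as dimers, with the homeodomain contacting DNA and the leucine zipper holding the partners together. HD-Zip I genes are known from responses to abscisic acid and water deficit and from the control of organ growth, HD-Zip II genes from auxin and shade responses and vascular development, and HD-Zip III genes, which are targets of the microRNA miR166, from vascular patterning and the upper and lower faces of the leaf. In rice, HOX22 is known from drought and salt responses through abscisic acid, HOX12 from panicle exsertion through a gibberellin-inactivating enzyme, HOX1 from early vascular development and tiller angle, HOX28 from tiller angle, and HOX33 from leaf senescence.

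The study compared the brown planthopper (BPH)-resistant indica variety RH with the susceptible indica variety TN1 (Taichung Native 1), both wild type, at an age of 2 weeks. Seedlings were left in natural growth (C), punctured with a needle 15 times per plant at the base (N), or given about 100 BPH nymphs per pot, on average 10 per seedling (P), and shoots were taken at 6 or 24 h. The 12 groups R6C, R6N, R6P, R24C, R24N, R24P, T6C, T6N, T6P, T24C, T24N and T24P are named by variety, hours and treatment, with 3 arrays each (36 in all). Each array held the pooled aerial parts of the 10 seedlings of 1 pot, so a difference in the number of cells of a type and a difference in RNA per cell could not be told apart.

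Values were deposited linear intensities, normalized across arrays. The array medians lay between 35.8 and 39.8, and every array correlated at 0.991 or more with the mean of the rest of its group. Photosynthesis markers of leaf tissue were high on every array (summed intensity of 10 probe sets 72914 to 116782), whereas both probe sets of OSH1, a shoot meristem marker, summed to between 14.9 and 82.5. Of the HOX probe sets, 20 were brighter than the array median on all 36 arrays, and 4 (HOX14, HOX16 (3), HOX17 and HOX19 (3)) were dimmer than it on all 36. A probe set was called when its limma adjusted p was below 0.05 and its fold change was at least 2, with the adjustment over all 57194 probe sets.

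Among the comparisons of a treatment with natural growth, the most HOX calls followed 24 h of BPH infestation in TN1. Here 4 HOX probe sets of 32 (12.5%) were called, all of them higher in T24P than in T24C, beside 6.66% of all probe sets called in either direction and 3.53% called higher. They were HOX12 and HOX22 of HD-Zip I and HOX1 and HOX7 (1) of HD-Zip II. One-way ANOVA of these groups alone, the study's test, called 0 of the 32 with adjusted p (2.76% of all probe sets) and 3 without the adjustment (6.2%). In RH at the same time no HOX probe set was called, beside 1.21% of all probe sets, although HOX22 was 1.86-fold higher in R24P than in R24C.

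HOX12 gave intensities of 43.6, 59.7 and 50.8 on the T24C arrays and of 502, 104 and 151 on the T24P arrays. All T24P arrays lay above every T24C array, and T24P replicate 1 stood far above the other T24P arrays. Its log2 fold change was 1.97 (SE 0.301, limma adjusted p = 3.69e-06), a 3.91-fold rise. On the 33 arrays outside T24P, HOX12 stayed between 28.97 and 85.5, close to the array medians, so its fold change starts from a level near the middle of the array.

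**Figure D1:**
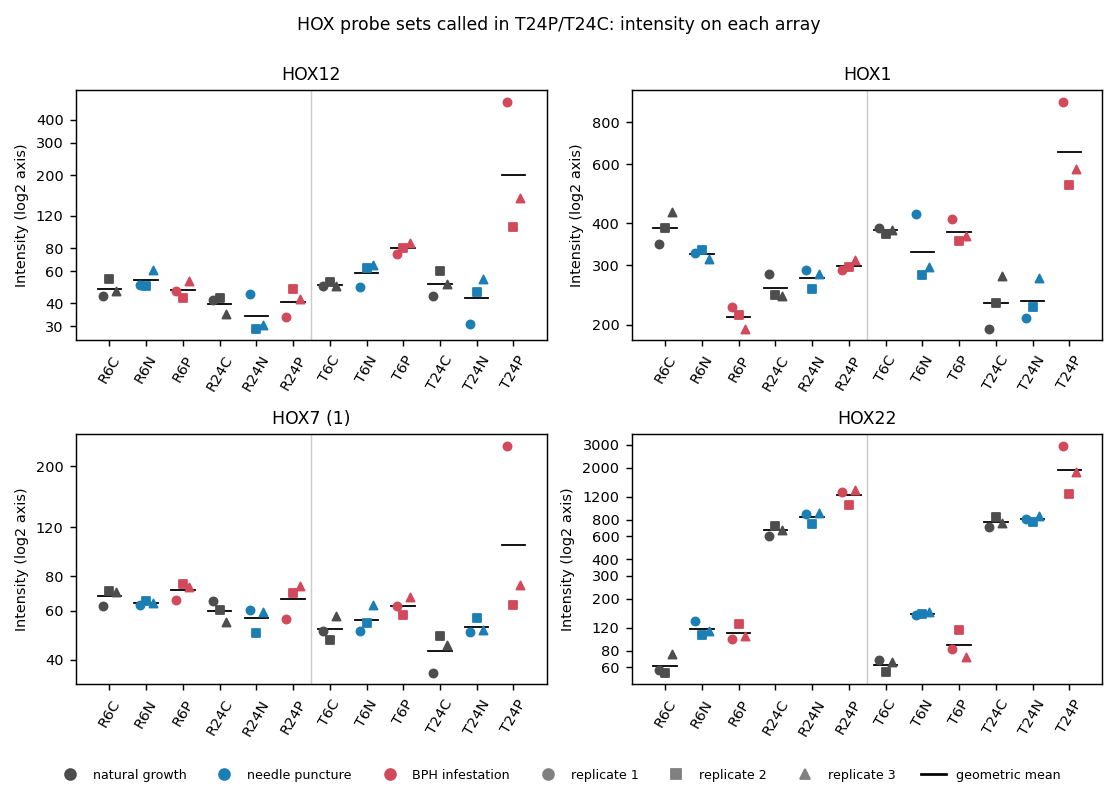
Intensity (log2 axis) of HOX12, HOX1, HOX7 (1) and HOX22 on each of the 36 arrays, by group, with colours for treatment, marker shapes for replicate and a line at each geometric mean. For HOX12 the T24P arrays read 502, 104 and 151 while the other 33 arrays stayed at 85.5 or less, and for HOX22 every 24 h group lay above every 6 h group.

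HOX1, the HD-Zip II gene linked to vascular development, gave 195, 232 and 279 in T24C and 920, 522 and 582 in T24P. Its groups were separated by a wide margin, and the highest of the 33 arrays outside T24P read 432. This was a 2.81-fold rise, with a log2 fold change of 1.49 (SE 0.156, limma adjusted p = 4.36e-09).

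HOX22, the drought- and salt-related HD-Zip I gene, was already bright at 24 h without treatment, at 706, 842 and 758 in T24C, and read 2946, 1271 and 1864 in T24P. These groups did not overlap either, and replicate 1 was again the highest. HOX22 rose 2.49-fold, by a log2 fold change of 1.32 (SE 0.193, limma adjusted p = 1.78e-06).

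HOX7, another HD-Zip II gene, has a pair of probe sets. HOX7 (1) read 35.8, 48.7 and 45.1 in T24C and 237, 63.1 and 74.1 in T24P, with a log2 fold change of 1.27 (SE 0.246, limma adjusted p = 1.09e-04). HOX7 (2) read 46.7, 39.2 and 39.5 against 170, 51.9 and 59.4 and had a log2 fold change of 0.95 (limma adjusted p = 0.00134), just short of the 2-fold limit. In both probe sets the T24P arrays lay above all T24C arrays, but replicate 1 carried most of the difference.

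Without the 2-fold limit more members passed in T24P/T24C, the called ones included. At the adjusted p alone 20 HOX probe sets of 32 passed in T24P/T24C, 13 higher and 7 lower, beside 30.3% of all probe sets, 15.4% higher and 14.9% lower. The median log2 fold change was 0.18 over the 32 HOX probe sets and -0.03 over all probe sets. The 3 T24P arrays all lay above the 3 T24C arrays for 14 HOX probe sets (18.7% of all probe sets did so) and all below them for 3 (19.1% of all probe sets).

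Among the other HD-Zip I members, HOX5 (2) read 41.8, 51.0 and 59.6 in T24C and 101, 96.5 and 92.6 in T24P. Its T24P arrays were the 3 highest of all 36 and lay close together, unlike those of HOX12. It rose by 0.94 on the log2 scale (limma adjusted p = 6.20e-06). The brighter HOX5 (1) rose by only 0.26 on the log2 scale (limma adjusted p = 0.0336), from 812, 812 and 930 to 1132, 890 and 1039. HOX6 rose by 0.55, HOX16 (1) by 0.45 and HOX16 (2) by 0.31, all past the adjusted p. HOX21 moved the other way and fell by 0.81 (limma adjusted p = 1.98e-04), from 467, 376 and 370 in T24C to 199, 290 and 209 in T24P, which did not overlap. HOX20 (2) fell by 0.45, whereas HOX20 (1) had a log2 fold change of -0.0022 and did not pass the test. HOX4, HOX8, HOX13 and HOX14 did not pass either.

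Among the other HD-Zip II members, HOX15 rose by 0.43 and HOX17, a probe set under the array median on all arrays, by 0.46. HOX2 and HOX28 fell, by 0.59 and 0.78 on the log2 scale (limma adjusted p = 0.0159 and 0.00829). HOX11 and the 3 probe sets of HOX19 did not pass the test, with log2 fold changes between -0.06 and 0.10.

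HD-Zip III genes had no call in T24P/T24C, and the median of their 6 probe sets was -0.19 on the log2 scale. HOX9 fell by 0.25, HOX33 by 0.36 and HOX10 (1) by 0.46, whereas HOX10 (2) rose by 0.97 (limma adjusted p = 4.39e-06). HOX29 and HOX32 did not pass, at log2 fold changes of -0.13 and 0.21.

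**Figure D2:**
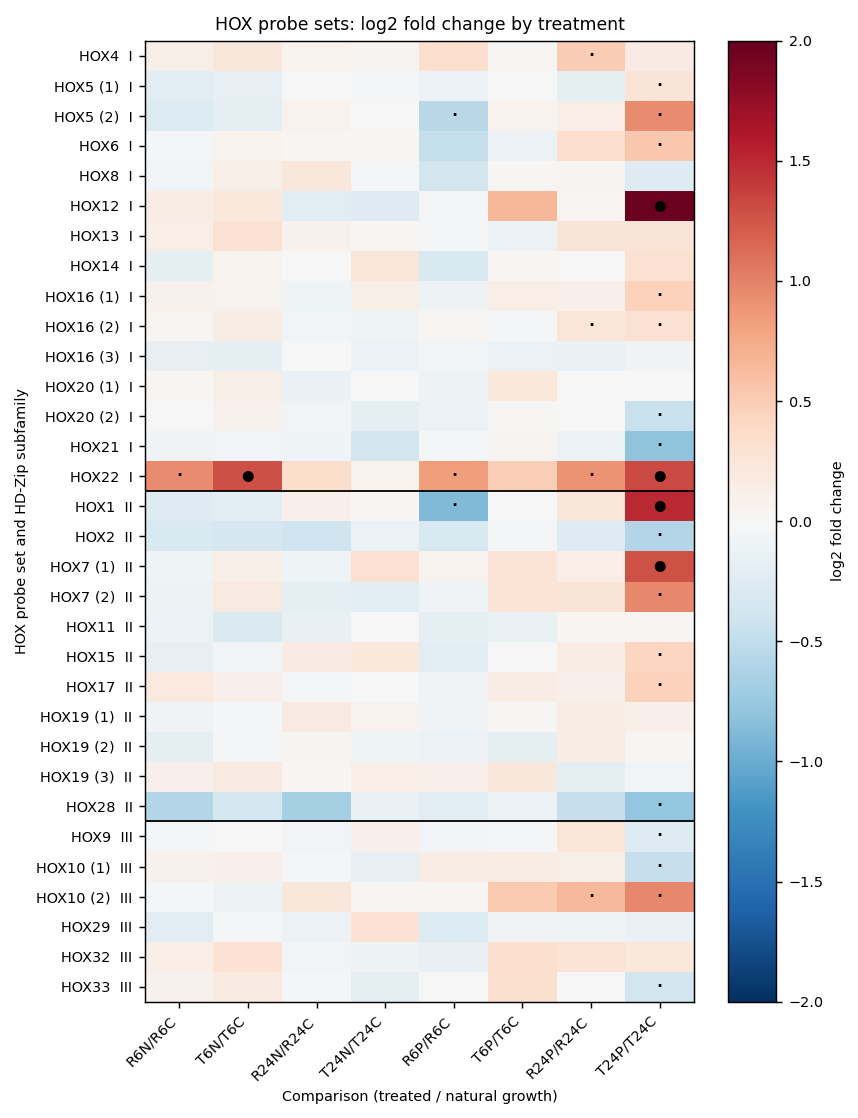
Colours give the log2 fold change of each of the 32 HOX probe sets (rows, by HD-Zip subfamily I, II and III) in the 8 comparisons of a treatment with natural growth (columns); a filled circle marks a call and a small dot an adjusted p below 0.05 without a 2-fold change. The T24P/T24C column holds 4 circles and 16 dots, and the only other circle is HOX22 in T6N/T6C.

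T24P replicate 1 was the most shifted T24P array in most of these members, by margins that differed. HOX12 read 502, 104 and 151 in T24P, whereas HOX5 (2) read 101, 96.5 and 92.6. In HOX21, at 199, 290 and 209, replicates 1 and 3 lay close together and replicate 2 lay apart. Replicate 1 was the highest of the 3 T24P arrays in 11 of the 13 members that were higher and the lowest in 6 of the 7 that were lower. The same share over all probe sets is not given. Over all probe sets this array had the lowest correlation with the rest of its group of all 36 arrays, 0.991. The same array also led in 8 of 10 probe sets of dehydration genes (dehydrins and LEA19, which encode proteins that accumulate in drying tissue). Their summed intensity was 20639 on replicate 1, 6358 on replicate 2 and 11589 on replicate 3, against 686 to 1766 on the other 33 arrays (961 to 992 in T24C), and 8 of the 10 were called higher in T24P/T24C. The 10 photosynthesis probe sets had log2 fold changes between -0.08 and 0.40 there, none of them called. The part of the dehydration genes' pattern in the HOX values was not tested.

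Without T24P replicate 1, 3 HOX probe sets were called in T24P/T24C, beside 5.11% of all probe sets. HOX1 kept a log2 fold change of 1.24, HOX12 of 1.30 and HOX22 of 1.01, whereas HOX7 (1) came to 0.67 and lost its call on the fold limit (limma adjusted p = 1.66e-04). At the adjusted p alone, 14 of the 20 passed again with the same sign, 11 higher and 3 lower, beside 24.8% of all probe sets. The 3 that remained lower were HOX10 (1), HOX20 (2) and HOX21. HOX2 and HOX28 came to -0.35 and -0.50 and no longer passed.

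**Figure D3:**
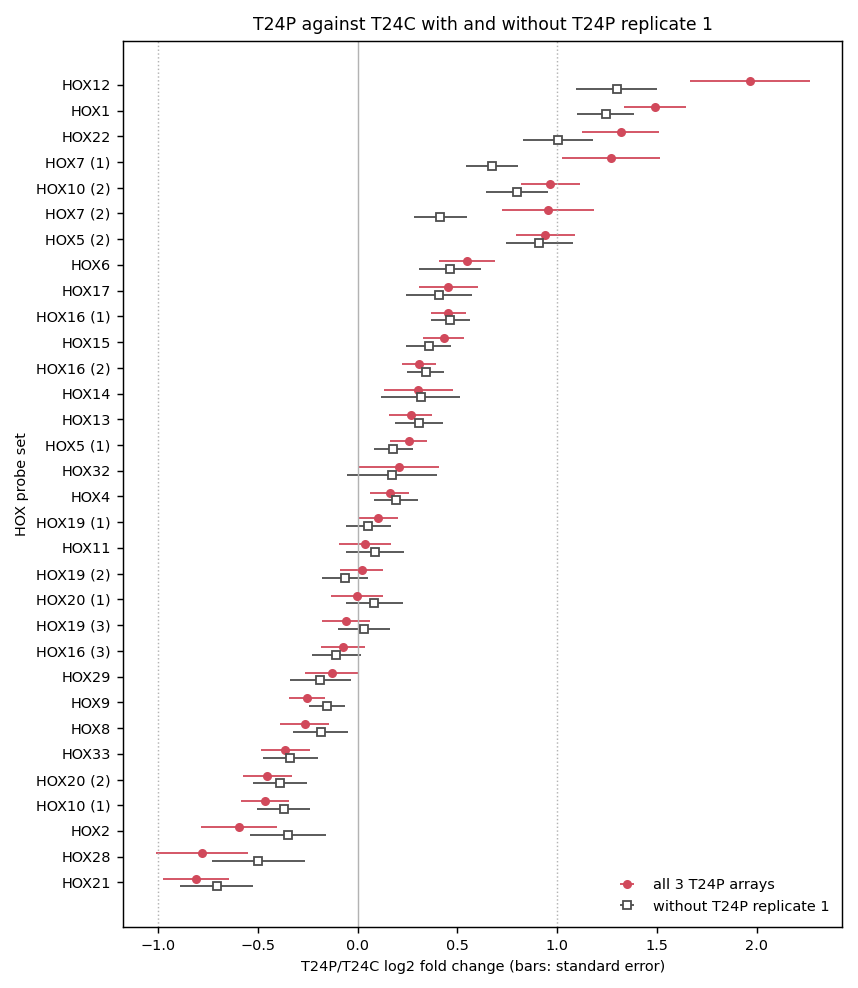
The log2 fold change of each HOX probe set in T24P/T24C, with the standard error as bars, from all 3 T24P arrays (filled circles) and without replicate 1 (open squares); dotted lines mark 2-fold. HOX12 moved from 1.97 to 1.30 and HOX7 (1) from 1.27 to 0.67, while HOX5 (2) stayed near its value, at 0.94 and 0.91.

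Against needle puncture instead of natural growth, T24P again had 4 calls, all higher (T24P/T24N, 6.08% of all probe sets called and 3.13% called higher). HOX12 was 4.67-fold, HOX1 2.78-fold, HOX22 2.37-fold and HOX7 (2) 2.26-fold above T24N, with limma adjusted p between 6.10e-09 and 1.32e-04. HOX7 (1), at 1.97-fold, just missed the limit here, so the pair of HOX7 probe sets exchanged places. Both comparisons share the T24P arrays. Without T24P replicate 1, 2 calls were left (4.66% of all probe sets), HOX1 and HOX12, the last at a log2 fold change of 1.56 in place of 2.22. HOX22 came to 0.93 (limma adjusted p = 1.41e-04) and HOX7 (2) to 0.64, both under the fold limit.

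In RH at 24 h, 4 HOX probe sets passed the adjusted p in R24P/R24C without reaching 2-fold, all higher, beside 15.1% of all probe sets. HOX22 read 602, 722 and 673 in R24C and 1316, 1045 and 1360 in R24P, a clear separation with a log2 fold change of 0.89 (limma adjusted p = 0.00145). HOX4, a gene known from the gibberellin response, read 683, 658 and 590 against 803, 927 and 1039, also with no overlap, for 0.51 (limma adjusted p = 3.71e-04). HOX10 (2) rose by 0.65 and HOX16 (2) by 0.25, the last not past the adjusted p in 4 of the 6 fits that left out 1 array. The brighter probe sets of these genes, HOX10 (1) and HOX16 (1), did not pass. HOX10 (1) read 993, 910 and 855 in R24C and 829, 1166 and 1027 in R24P, which overlapped. The dehydration genes were also higher in R24P, with summed intensities of 1443 to 1766 against 1042 to 1215 in R24C, and 3 of their 10 probe sets, of RAB21 and LEA19, were called with log2 fold changes of 1.32 to 1.44. Their part in the HOX22 value was not tested. Over all 32 members the median was 0.11, against -0.03 over all probe sets, and 8 members had an unadjusted p below 0.05, beside 28.1% of all probe sets.

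The RH values of the other TN1-responsive members were compared through the interaction, the RH response minus the TN1 response. For HOX12, R24C read 41.7, 42.6 and 35.1 and R24P 33.8, 47.7 and 42.0, which overlapped. In RH the log2 fold change was 0.04 with a 95% interval from -0.58 to 0.65, and the interaction was -1.93 (limma adjusted p = 0.00314). For HOX1, R24C read 283, 244 and 244 and R24P 290, 296 and 311, for a log2 fold change of 0.22 (95% interval -0.10 to 0.54) and an interaction of -1.27 (limma adjusted p = 3.00e-04). Both probe sets thus responded less in RH than in TN1 by the test of the difference itself.

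In all, 7 HOX probe sets of 32 passed the interaction for BPH at 24 h, where no minimum fold was set, beside 9.55% of all probe sets (5.39% higher and 4.16% lower in RH). The responses of HOX1, HOX5 (1), HOX5 (2), HOX7 (1) and HOX12 were lower in RH, and those of the HD-Zip III probe sets HOX9 and HOX10 (1) were higher in RH. The second probe set of HOX7, HOX7 (2), had an interaction of -0.69 and did not pass (limma adjusted p = 0.207). That of HOX10 (2) had the opposite sign to HOX10 (1), at -0.31, and did not pass (limma adjusted p = 0.439). HOX9 read 1402, 1277 and 1325 in R24C and 1470, 1579 and 1684 in R24P, but 1428, 1403 and 1395 in T24C and 1025, 1410 and 1139 in T24P. It thus lay higher with BPH on every RH array, and below every T24C array on 2 of the 3 T24P arrays. The interaction of HOX9 was 0.49 (limma adjusted p = 0.0104). HOX22, which was higher with BPH in both varieties, had an interaction of -0.43 with a 95% interval from -0.98 to 0.13 and did not pass (limma adjusted p = 0.407).

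These interactions depended on single arrays for several members. Without T24P replicate 1, 4 remained, HOX1, HOX5 (2), HOX9 and HOX12 (6.27% of all probe sets). That of HOX12 moved from -1.93 to -1.26 (limma adjusted p = 0.00353), and that of HOX7 (1) from -1.13 to -0.54 with no call (limma adjusted p = 0.066). HOX1, HOX9 and HOX12 passed in all 12 fits that left out 1 array, HOX5 (2) in 11, HOX5 (1) and HOX7 (1) in 6 and HOX10 (1) in 5.

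**Figure D4:**
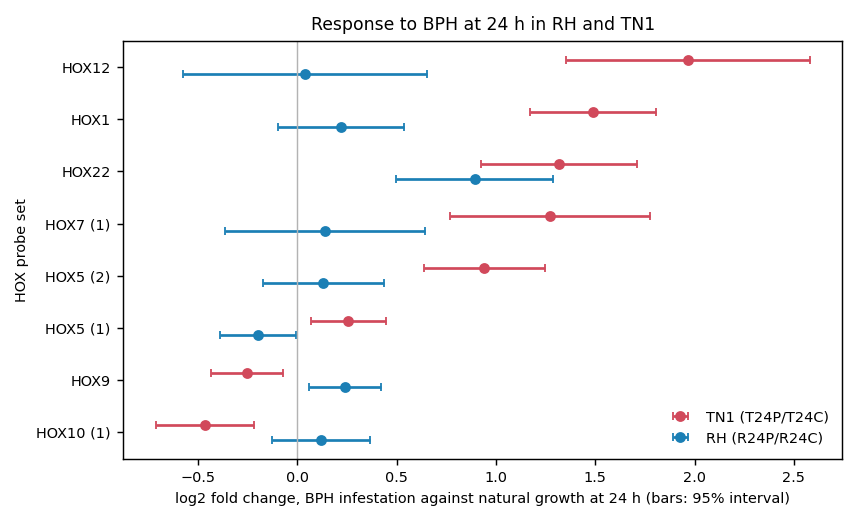
The log2 fold change of BPH infestation against natural growth at 24 h in TN1 and RH, with 95% intervals, for the 7 HOX probe sets that passed the interaction and for HOX22. In RH the interval of HOX12 ran from -0.58 to 0.65 and that of HOX1 from -0.10 to 0.54, while both intervals of HOX22 lay above 0.

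Directly between the infested varieties at 24 h, 3 HOX probe sets were called, all lower in RH (R24P/T24P, 5.81% of all probe sets, and 2.98% called lower). The RH over TN1 difference was -2.29 on the log2 scale for HOX12, -1.13 for HOX1 and -1.02 for HOX5 (2) (limma adjusted p between 4.11e-07 and 2.34e-06). For the brighter HOX5 (1) it was -0.44, past the adjusted p (4.34e-04 by limma) but under the fold limit. HOX4 was the member with the firmest difference the other way, 0.65 higher in RH (limma adjusted p = 3.69e-06), with R24P at 803, 927 and 1039 and T24P at 558, 598 and 596. Without T24P replicate 1, HOX12 was the single call, at -1.62 (4.92% of all probe sets). HOX5 (2) at -0.99 and HOX1 at -0.88 still passed the adjusted p (3.70e-05 and 2.04e-05 by limma) and missed the fold limit.

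At 6 h of BPH infestation no HOX probe set was called in RH (R6P/R6C, 0.416% of all probe sets) or in TN1 (T6P/T6C, 0.329%). By limma at an unadjusted p below 0.05, 8 and 4 members passed in these comparisons, beside 17.9% and 14.4% of all probe sets. One-way ANOVA with adjusted p called 0 members in both, but also only 1 and 0 of all probe sets, so its count of 0 carries no information about the members. HOX1 was lower in R6P, at 225, 213 and 194 against 349, 387 and 432 in R6C, with no overlap. It fell by 0.88 on the log2 scale (limma adjusted p = 8.16e-04), the reverse of its direction in T24P/T24C. HOX5 (2) fell by 0.55 in the same comparison and HOX22 rose by 0.84, to 97.8, 128 and 104 from 56.4, 53.9 and 75.1, so that 3 members passed the adjusted p in R6P/R6C beside 3.06% of all probe sets. Of these, HOX1 passed in all 6 fits that left out 1 array, HOX22 in 4 and HOX5 (2) in 1. In TN1 at 6 h no member passed the adjusted p (2.47% of all probe sets did). HOX1 read 411, 356 and 367 in T6P and 389, 371 and 384 in T6C, a log2 fold change of -0.01 (95% interval -0.33 to 0.30), and its interaction at 6 h, -0.87, did not pass (limma adjusted p = 0.152). No member passed that interaction (0.11% of all probe sets). At an unadjusted p below 0.05 it was passed by 5 members, beside 10.4% of all probe sets.

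HOX12 in T6P read 74.3, 80.3 and 85.5, above the 49.5, 52.1 and 49.7 of T6C without overlap. Its log2 fold change of 0.66 had a 95% interval from 0.05 to 1.28 and did not pass the adjusted p (0.293).

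Feeding and puncture at 6 h and at 24 h in RH differed in no called HOX probe set (R6P/R6N 0.199%, T6P/T6N 0.194% and R24P/R24N 0.757% of all probe sets). By limma 5, 5 and 7 members had an unadjusted p below 0.05, beside 11.5%, 9.04% and 26.1% of all probe sets. At the adjusted p, 2 members passed in T6P/T6N (0.643% of all probe sets), with log2 fold changes of -0.80 for HOX22 (limma adjusted p = 0.0427) and 0.63 for HOX10 (2) (0.0378). In R24P/R24N 3 passed (12% of all probe sets), all higher with BPH: HOX4 by 0.45, HOX16 (2) by 0.31 and HOX9 by 0.30. In R6P/R6N none did.

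After needle puncture a single HOX gene was called. HOX22 read 149, 151 and 158 in T6N against 67.5, 54.8 and 65.3 in T6C, with the punctured arrays close together and far above. It rose 2.45-fold, by 1.29 on the log2 scale (SE 0.193, limma adjusted p = 8.84e-05), the only HOX call in T6N/T6C (0.418% of all probe sets, 0.385% higher). One-way ANOVA of these groups alone called 0 members with adjusted p, where it called 2 of all probe sets, and 1 member without the adjustment (0.441% of all probe sets). In RH the 6 h puncture arrays read 136, 105 and 114 against 56.4, 53.9 and 75.1 in R6C. They did not overlap, and the change of 0.94 (limma adjusted p = 0.0134) fell just short of 2-fold, leaving no HOX call in R6N/R6C (0.177% of all probe sets). By limma 3 members had an unadjusted p below 0.05 there, beside 6.62% of all probe sets, and one-way ANOVA with adjusted p called 0 of all probe sets. The interaction of HOX22 for puncture at 6 h was -0.35 (95% interval -0.91 to 0.20), and no member passed it (0.014% of all probe sets), nor did any at an unadjusted p below 0.05 (0 members, beside 3.58% of all probe sets).

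By 24 h after puncture no HOX probe set was called in RH (R24N/R24C, 0.021% of all probe sets) or TN1 (T24N/T24C, 0.0542%). By limma 2 and 3 members had an unadjusted p below 0.05, beside 6.15% and 6.24% of all probe sets, and one-way ANOVA with adjusted p called 0 of all probe sets in both. HOX22 read 889, 743 and 909 in R24N and 808, 764 and 852 in T24N, for log2 fold changes of 0.35 and 0.07 that did not pass. The interaction for puncture at 24 h passed in no member (0% of all probe sets), and 1 member had an unadjusted p below 0.05, beside 3.99% of all probe sets.

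Between the sampling times, HOX22 was the only HOX gene called in every series. Over all groups it read 53.9 to 158 at 6 h and 602 to 2946 at 24 h, so every 24 h array lay above every 6 h array. It was called higher at 24 h in 6 of 6 series, whereas 0.974% of all probe sets were called higher in at least 4 of the 6. In natural growth its log2 fold change was 3.44 in RH (R24C/R6C, where 2.68% of all probe sets were called and 1.09% called higher) and 3.62 in TN1 (T24C/T6C, 2.69% and 1.22%). After puncture it was 2.84 in RH (R24N/R6N, 2.56% and 0.963%) and 2.40 in TN1 (T24N/T6N, 2.51% and 0.97%). With BPH it was 3.50 in RH (R24P/R6P, 3.19% and 1.89%) and 4.44 in TN1 (T24P/T6P, 9.5% and 3.79%). HOX22 was the only HOX call in the first 4 of these series, and 2 HOX probe sets were called in R24P/R6P and 3 in T24P/T6P. Photosynthesis markers moved with sampling time too: 4 of the 10 probe sets, all of rca (Rubisco activase), were called higher in both R24C/R6C and T24C/T6C, by log2 fold changes of 1.05 to 1.40. Their part in the HOX22 pattern was not tested. In the treated series the 6 h and 24 h collections differ in clock time as well as in hours of treatment, and these could not be told apart. In the untreated natural growth pots HOX22 rose by 3.44 in RH and 3.62 in TN1, and the cause was not tested.

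HOX6, described here because of its values, was the only other HOX gene called in more than 1 of these series. With BPH it rose by 1.01 in RH, from 185, 174 and 138 in R6P to 279, 355 and 370 in R24P, and by 1.28 in TN1, from 163, 150 and 106 to 375, 338 and 296 (limma adjusted p = 1.49e-06 and 6.29e-09). Neither pair of groups overlapped. It passed the adjusted p in 4 of 6 series, always higher at 24 h. HOX12 was called in T24P/T6P, at 1.32 (limma adjusted p = 6.42e-04), and came to 0.65 with no call without T24P replicate 1, when 2 HOX calls were left (8.35% of all probe sets).

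Smaller time differences, under the 2-fold limit, recurred in a few members, also described here because of their values. HOX8 (HD-Zip I) and HOX20 (2) each passed the adjusted p as lower at 24 h in 5 of 6 series, and HOX9 as higher in 4 of 6. HOX1 was lower at 24 h in 3 series (R24C/R6C, T24C/T6C and T24N/T6N) and higher in both BPH series, by 0.51 in RH and 0.79 in TN1.

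Between the varieties no HOX probe set was called in natural growth (R6C/T6C, 2.91% of all probe sets, and R24C/T24C, 2.75%) or after needle puncture (R6N/T6N, 2.92%, and R24N/T24N, 2.81%). By limma 4 and 3 members had an unadjusted p below 0.05 in natural growth, beside 18.7% and 17.9% of all probe sets, and 4 and 9 after puncture, beside 17.3% and 19.1%. One-way ANOVA with adjusted p, run for the natural growth groups, called 0 members at both times, beside 2.41% and 2.25% of all probe sets. HOX6 was 0.62 higher in RH in R6C/T6C (limma adjusted p = 0.00233), at 197, 240 and 257 against 164, 144 and 142, which did not overlap. HOX17 was 0.48 higher in RH in R24C/T24C. In R6P/T6P the single call was HOX5 (2), at 31.8, 29.3 and 28.3 in R6P against 51.2, 63.1 and 65.3 in T6P (3.11% of all probe sets called, 1.73% lower). These groups did not overlap, and the difference lay right on the 2-fold limit. The R6P values of HOX5 (2) lay below the medians of their arrays, 37.3 to 38.4. The brighter HOX5 (1) had a log2 difference of -0.17 in R6P/T6P and did not pass (limma adjusted p = 0.235). No member was called between the varieties in 4 or more of the 6 comparisons.

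Of the 32 members, 25 were called in none of the 24 pairwise comparisons and 7 in at least 1, beside 16.3% of all probe sets. The steadiest of those with a mean log2 intensity over 6 were HOX15 and HOX16 (1), with SDs of their 12 group means of 0.119 and 0.129 on the log2 scale, against 1.84 for HOX22 and 0.666 for HOX12. HOX16 (1) ranged over all 36 arrays only from 4110 to 6386, and its 3 highest arrays were those of T24P, at 6164, 6386 and 6230. Among the members called nowhere, HOX11 had a highest group mean 1.25 times its lowest, HOX14 1.29 times, HOX32 1.44 times, HOX29 1.56 times and HOX13 1.58 times. Others of them spanned more, the widest being HOX10 (2) at 2.30 times and HOX8 at 1.96 times. HOX29 and HOX32, both HD-Zip III, had their lowest group mean in R6P, and their 36 arrays ran from 66.1 to 120 and from 78.3 to 186.

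Probe sets of the same gene did not always move together. In T24P/T24C, HOX10 (1) read 1305, 1136 and 1014 in T24C and 729, 979 and 801 in T24P and fell, while HOX10 (2) read 34.1, 25.5 and 31.8 against 74.6, 43.3 and 64.0 and rose. Neither pair of groups overlapped, so HOX10 as a gene has no single direction here. HOX10 (2) was brighter than the array median on only 10 of 36 arrays. In HOX7 both probe sets rose, and in HOX16 the dim HOX16 (3), between 5.23 and 8.19 on all arrays, did not pass while the brighter pair rose.

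HOX2 and HOX28 lie next to each other in the annotation, with 0 protein-coding genes between them, and their arrays were ordered alike. In 9 of 12 groups the 3 arrays had the same order in both genes. Pairs of probe sets of the same gene shared their order in 1 (HOX5) to 5 (HOX19 and HOX20) of the 12 groups. In T24P, HOX2 read 406, 870 and 524 and HOX28 161, 407 and 207, so that replicate 2 lay within the T24C range of both genes (802 to 906 and 360 to 464) and replicates 1 and 3 lay below it. Whether the probes of one gene also hybridise to transcripts of the other was not tested.

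**Figure D5:**
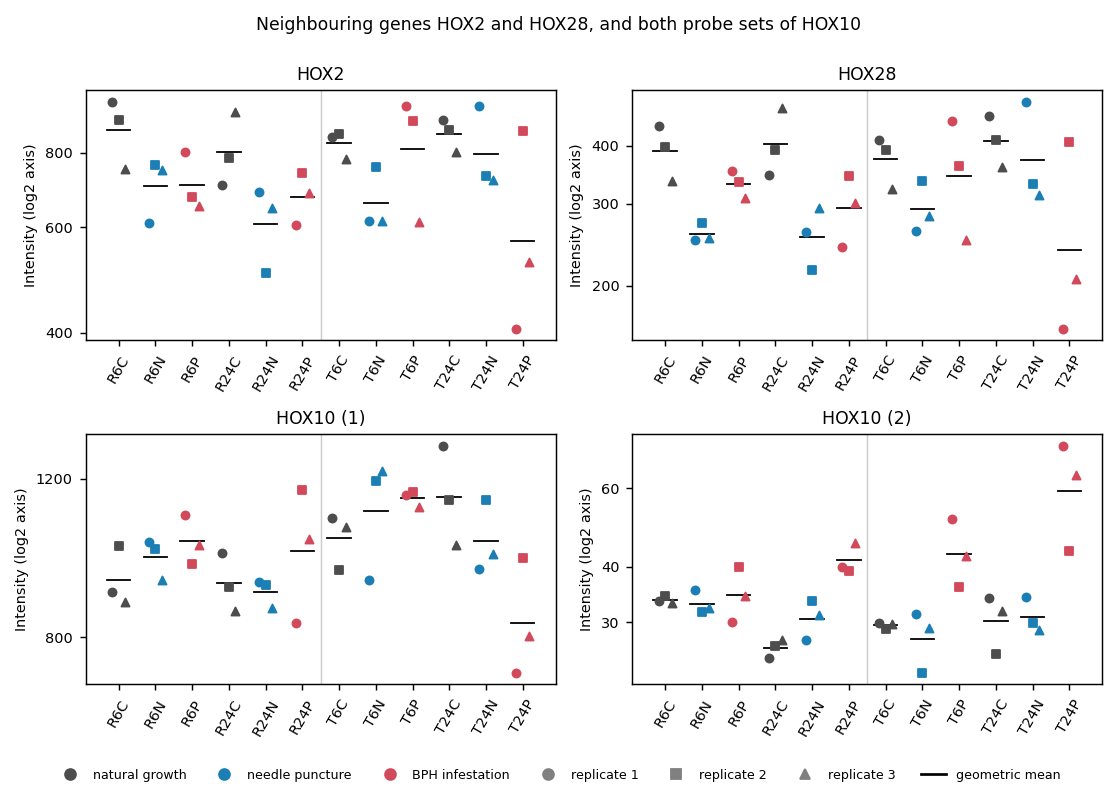
Intensity (log2 axis) on each array of the neighbouring genes HOX2 and HOX28 and of both HOX10 probe sets, by group, with the geometric mean as a line. In T24P replicate 2 of HOX2 and HOX28 stayed at 870 and 407 while replicates 1 and 3 were lower, and HOX10 (1) fell where HOX10 (2) rose.

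The other homeobox families on the array (KNOX, WOX, HD-Zip IV, zinc finger and PHD finger types), were read from 34 probe sets. In T24P/T24C 1 of 34 was called, beside 6.66% of all probe sets. It was the zinc finger homeobox gene OsZHD1, lower by 1.51 on the log2 scale (limma adjusted p = 9.64e-11). The median of the 34 was -0.04, whereas the HOX median was 0.18. The KNOX gene HOS9 was the single call of the 34 in T6P/T6C, higher by 1.34 (0.329% of all probe sets called). For the interaction of BPH at 24 h, 3 of 34 passed, beside 9.55% of all probe sets. OSH43 and OsZHD1 had a higher response in RH and OsWOX11 a lower one. Many of the 34 had a mean intensity under the lowest array median of 35.8, HOS9 (13.85) and OsWOX11 (16.98) among them. OsZHD1 had a mean of 77.04. The difference in counts between these families and the HOX genes was not tested. How far it follows the intensity of the probe sets was not tested either.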

How the data were processed

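RNA of 36 pots was hybridised to Affymetrix Rice Genome Arrays. The deposited values are linear intensities that, per the labels' processing notes, the authors made with RMA in the affy package (version not given in the sources used here), so the arrays were already normalized together. They were taken to log2 with no filter. Probe sets were named from the platform annotation (22436 with 1 gene, 95 with several, 34663 with none) and RefSeq synonyms matched by gene ID; HOX3 and a HOX29 probe set shared between 2 genes had no single-gene probe set and were left out. limma 3.58.1 (R 4.3.3) fitted 12 group means over 57194 probe sets (24 residual and 6.16 prior degrees of freedom), with Benjamini-Hochberg adjustment within each comparison. SE is limma's moderated standard error, from 3 pots per group.

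The members and the lists of other homeobox, dehydration and photosynthesis genes were chosen with earlier results of these data known. Named in full were probe sets called in a treatment comparison or an interaction, or in at least 4 of 6 variety or time comparisons in one direction, and the 2 steadiest over a mean log2 of 6; any other was singled out for its values. Shared replicate numbers were checked for pairing. The correlation of same-numbered deviations ran from -0.48 to 0.26, and in 1 of 24 comparisons (T24P/T6P) every pair was over 0.1. No label links these pots, so whether they were paired is not known, and the main fit did not pair them. Alternatives were one-way ANOVA (the methods' test), no minimum fold, quantile normalization, median centring, log2(intensity + 32), trended robust variances, a filter on dim probe sets, only the groups compared, the replicate block, and leaving out each array. The fits were tested on simulated data. The number of arrays limits the precision.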

Additional observations from a re-analysis of the deposited data

Results flagged for a closer look

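For 7 HOX probe sets the response to BPH at 24 h differed between the varieties by limma's interaction test. The RH response was lower than the TN1 response by a log2 difference of -1.93 in HOX12, -1.27 in HOX1, -1.13 in HOX7 (1), -0.81 in HOX5 (2) and -0.46 in HOX5 (1). It was higher by 0.59 in HOX10 (1) and 0.49 in HOX9. The second probe sets HOX7 (2), at -0.69, and HOX10 (2), at -0.31, did not pass. Without T24P replicate 1, HOX12 came to -1.26, HOX1 to -1.02, HOX5 (2) to -0.78 and HOX9 to 0.39, all past the test, while HOX7 (1) at -0.54, HOX5 (1) at -0.38 and HOX10 (1) at 0.49 did not pass.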

How the results depend on the processing

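None of the values followed through the alternatives changed sign. They were HOX calls, the members past the adjusted p in T24P/T24C, and chosen values of RH treatment comparisons. Calls of BPH against puncture, and calls in R6P/T6P, R24P/R6P, R24N/R6N and T24N/T6N, were not followed through all of them. Among members not followed, 3 changed sign in T24P/T24C without T24P replicate 1. HOX20 (1), 1 of these, went from -0.0022 to 0.084. With no minimum fold, the HOX probe sets called were 1 in R6N/R6C, 3 in R6P/R6C, 4 in R24P/R24C, 20 in T24P/T24C, 1 in R6C/T6C, 1 in R24C/T24C, 9 in R24P/T24P, 5 in R24C/R6C, 6 in T24C/T6C and 19 in T24P/T6P. Of all probe sets, 3.06% passed in R6P/R6C, 15.1% in R24P/R24C and 30.3% in T24P/T24C. For the others this share is not given, so their counts stand without that comparison. One-way ANOVA with adjusted p called 0 in T6N/T6C, 0 in T24P/T24C and 1 in R24P/T24P, beside 0.0035%, 2.76% and 2.1% of all probe sets. Without the adjustment it called 1, 3 and 3, beside 0.441%, 6.2% and 5.31%. With log2(intensity + 32), T6N/T6C had 0 calls. The filter on a mean log2 over 6 kept 20 members and 23248 probe sets, leaving out HOX12, HOX7 and HOX5 (2) by its construction, and left 2 calls in T24P/T24C and 1 in R24P/T24P. A fit on only the groups compared passed 2 interactions for BPH at 24 h. For the log2(intensity + 32), filtered and restricted fits the share over all probe sets is not given, so these counts stand without that comparison.

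Leaving out 1 array gave 0 to 1 calls in R6N/R6C, 0 to 1 in R24P/R24C, 3 to 7 in T24P/T24C, 1 to 4 in R24P/T24P, 2 to 5 in T24P/T6P and 3 to 10 for the BPH interaction at 24 h. The 7 and 5 came without T24P replicate 2, the 1 in R24P/R24C without R24P replicate 2, and the 1 in R6N/R6C without R6C replicate 3 or R6N replicate 2. The interaction had 3 without T24C replicate 1 and 4 without R24C replicate 2 or T24P replicate 1. The cause was not tested. The share over all probe sets is given above only for the fits without T24P replicate 1. The replicate block left the count of HOX calls in T24P/T24C at 4 and changed no other count by over 1.5 times.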
